A study of Caenorhabditis elegans with 43 samples.

Results

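Small RNA-seq of snpc-1.3 mutant hermaphrodites collected at 48 hr was compared with that of wild-type hermaphrodites collected at 72 hr. The members are the 2 snpc-1.3(-) spe. libraries and the 3 WT oog. libraries of the raw count table, which are 5 of the 11 small RNA libraries and 5 of the 43 samples of the series. They were chosen by their genotype and age labels, without use of any measured value. The snpc-1.3(-) spe. libraries come from whole worms of genotype snpc-1.3(xk27), a loss-of-function allele on chromosome V, at the L4 stage (48 hr), when hermaphrodites make sperm. The WT oog. libraries come from whole gravid N2 adults (72 hr), which make oocytes and carry embryos. The 3 WT spe. libraries, from N2 worms at L4 (48 hr), served as the stage-matched reference. Another 3 libraries, snpc-1.3(2xtbs) (xk36, 72 hr), have 2 of the 3 TRA-1 binding sites upstream of snpc-1.3 mutated. The paper lists xk36 as an allele that also carries a 3xFlag tag on snpc-1.3. The snpc-1.3(2xtbs) libraries entered the shared fits and are otherwise given only as levels of the called piRNAs. All worms grew at 20°C on OP50 bacteria. According to the methods, the libraries of each time point were pooled on a flow cell of their own, so stage, flow cell and, in this comparison, genotype cannot be told apart. No label says that replicates came from separate cultures, so p-values measure only the spread between these libraries, although a figure caption of the study calls replicates of its small RNA-seq biological.

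piRNAs of C. elegans, called 21U-RNAs, are short RNAs that start with U and load the Piwi protein PRG-1, with which they silence foreign sequence in the germline. Most are transcribed as separate small units from clusters on chromosome IV, behind an upstream motif with the core GTTTCA, and the snRNA-type factor SNPC-4 acts at these units. SNPC-1.3 is a paralogue of the SNPC-1 subunit of that complex, and the study asks whether it directs the piRNAs of the male germline. miRNAs are made from genes of their own in all tissues, and several of them time the larval stages, so they are set beside the piRNAs here.

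Depth bounds what can be seen. Counts on features were 6732465 and 11395591 in the snpc-1.3(-) spe. libraries and ranged from 11052340 to 11925119 in WT oog. and from 4336397 to 10605717 in WT spe. Counts of replicate libraries spread beyond sampling error, with a chi-square of 21.19 per degree of freedom between the mutant libraries, and WT oog. replicate 3 stood apart from replicates 1 and 2 (values of 21.8 and 19.48, against 4.24 between those). The targeted gene is no check of the labels, since xk27 is a premature stop and small RNAs do not report an mRNA. Counts on snpc-1.3 were 0 and 1 in the mutant, 4 to 6 in WT oog. and 1 to 5 in WT spe.

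The mutant differed from WT oog. in how many of its reads were piRNAs. Chromosome IV piRNAs took 7.28% and 8.93% of counts in the snpc-1.3(-) spe. libraries and 19.3%, 20.2% and 16.0% in WT oog. WT spe. libraries gave 8.4%, 9.11% and 10.7%. Both mutant libraries lay below every WT oog. library, with means of 8.11% ± 1.17 (SD, n = 2) and 18.5% ± 2.21 (SD, n = 3). The difference was -10.4 percentage points (exact permutation test, two-sided, p = 0.1, the smallest p that 2 against 3 libraries allow). miRNAs took 81.7% and 81.0% of counts in the mutant, 59.2%, 57.1% and 62.1% in WT oog. and 79.0%, 79.6% and 76.5% in WT spe., a difference between mutant and WT oog. of 21.9 points (exact p = 0.1). snRNAs, the RNAs of the spliceosome, took 1.77% and 1.92% in the mutant against 6.85%, 7.1% and 8.64% in WT oog. In these shares the mutant lay with the worms of its own age. In bulk samples, fewer cells of a type and less RNA per cell cannot be told apart.

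Within the piRNA class the mutant lay nearer to the oogenic worms than to those of its own age. It did not fall among the WT oog. libraries. All piRNA levels below are CPM, the counts of a library scaled to a common total of chromosome IV piRNA counts and by TMM over these piRNAs, so the lower total is not part of them. On a line drawn from the WT spe. mean (0) to the WT oog. mean (1) of log2(CPM + 1), the mutant libraries lay at 1.22 and 1.2 over 6176 chromosome IV piRNAs of at least 10 CPM on average. These positions use CPM without TMM; with TMM, as in the rest of the text, 6086 piRNAs reach that level. The WT oog. libraries lay at 0.96 to 1.00 and the WT spe. libraries at 0.00 to 0.05, each placed with the mean of the other libraries of its group. Both mutant libraries thus lay past WT oog., on the side away from WT spe. For 136 miRNAs the mutant lay with WT spe. instead, with both mutant libraries at 0.01, the WT spe. libraries at 0.01 and the WT oog. libraries at 0.91 to 1.06. Positions over protein coding features were 0.22 and 0.16, those over pseudogenes 0.22 and 0.19 and those over other ncRNAs 0.22 and 0.16, each within or close to the range of the WT spe. libraries. tRNAs gave 0.09 and 0.10, and snRNAs gave -0.19 and 0.10 where the WT spe. libraries themselves ranged from -0.29 to 0.43. These positions are descriptions with no test, since features are not replicates.

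**Figure D1:**
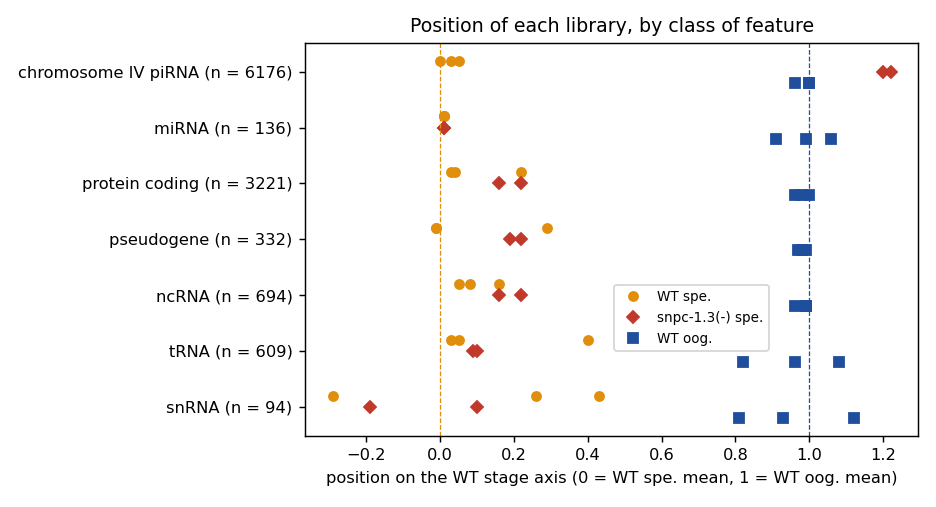
Position of each library on the line from the WT spe. mean (0) to the WT oog. mean (1) of log2(CPM + 1), by class of feature. Each point is 1 library; the mutant libraries lie at 1.22 and 1.2 for chromosome IV piRNAs and at 0.01 for miRNAs.

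Pairs of libraries gave the same picture. Pearson's r of log2(CPM + 1) over the 6176 piRNAs was 0.91 to 0.94 between mutant and WT oog. libraries, 0.36 to 0.44 between mutant and WT spe. libraries and 0.97 to 0.99 among the WT oog. libraries. The median absolute log2 difference per piRNA was 0.44 to 0.57 between mutant and WT oog. and 1.41 to 1.64 between mutant and WT spe., while the mutant libraries differed from each other by 0.4. The WT oog. libraries differed from each other by 0.19 to 0.35. For the 136 miRNAs r was 0.86 to 0.89 with WT oog. and 0.98 to 1.0 with WT spe. These values are across features, which share library depth and are not independent replicates.

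Of 14714 chromosome IV piRNAs listed, 732 had no count in any library and 13982 were tested. A piRNA was called when edgeR's quasi-likelihood test gave a Benjamini-Hochberg adjusted p of at most 0.05 and a log2 fold change of at least 0.26 (1.2-fold) in size. Between the mutant and WT oog., 142 piRNAs were higher (1.02% of those tested) and 750 were lower (5.36%), 6.38% in all. The WT stage contrast in the same fit, WT spe. against WT oog., called 3563 higher (25.5%) and 4278 lower (30.6%), 56.1% in all, and the mutant against WT spe. called 25.6% higher and 23.7% lower, 49.3% in all. Both mutant libraries lay above every WT oog. library for 1063 piRNAs (7.6%) and below for 3889 (27.8%). Chromosome IV piRNA counts were 490418 and 1018096 in the mutant and 1823464 to 2409230 in WT oog. Of the tested piRNAs, 3734 had no count in the mutant and 825 none in WT oog. The median log2 fold change was -0.38. It was -0.16 over 11117 piRNAs when a group without counts was placed at a bound of 3 counts. The contrasts above share their libraries and are given side by side only. A missed threshold does not show equal levels, so the 95% interval of each log2 fold change was also read: among the 6086 piRNAs of at least 10 CPM on average it lay within 2-fold of WT oog. for 2598 in the mutant and for 468 in WT spe., and wholly beyond 2-fold for 431 in the mutant and 3715 in WT spe. Over all tested piRNAs the counts within 2-fold were 3288 and 862, of which 674 and 391 had under 1 CPM, where few or no counts set the interval. Scaled to miRNA totals in place of TMM, which keeps the lower piRNA total of the mutant in the values, 7 piRNAs were higher and 7696 lower, 16 of those of at least 10 CPM lay within 2-fold, and the median log2 fold change moved from -0.38 to -1.96. Without snpc-1.3(-) spe. replicate 2, 26 were higher and 177 lower, and 1115 of at least 10 CPM lay within 2-fold. Without replicate 1 of the mutant, 90 were higher and 366 lower, and without WT oog. replicate 1 or 2, 71 or 66 were higher. DESeq2 called 101 higher and 275 lower. In a fit of only the 5 libraries compared, 285 were higher and 634 lower, so that higher calls made up 31% of all calls against 15.9%.

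**Figure D2:**
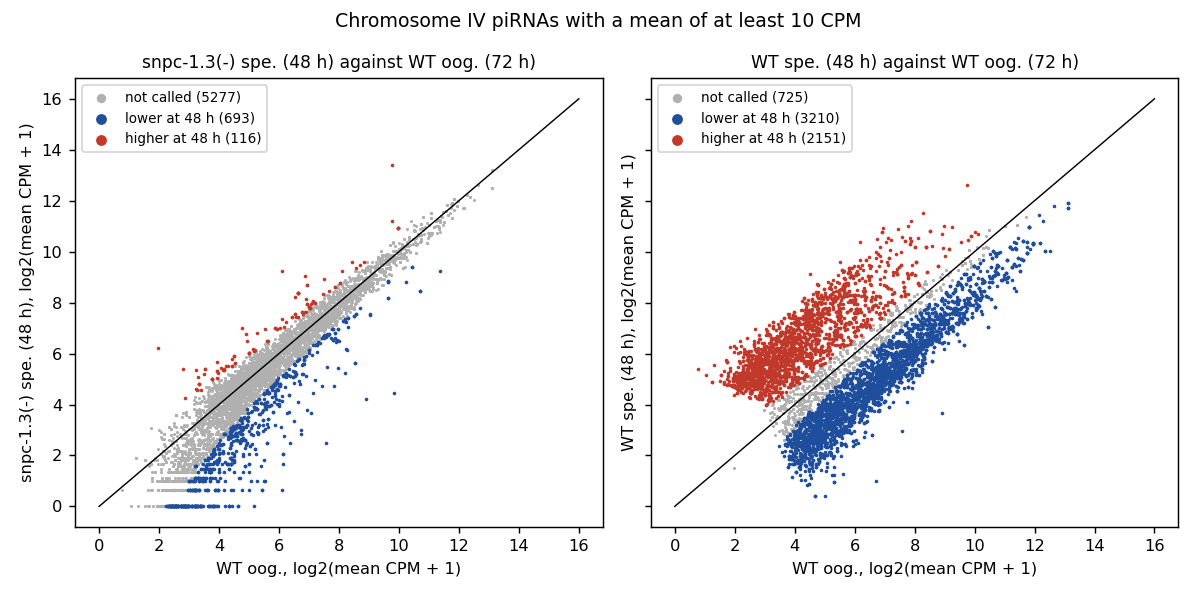
Mean level of each chromosome IV piRNA in WT oog. against its level in snpc-1.3(-) spe. and in WT spe. (CPM on log axes). Points of the mutant lie closer to the diagonal, with the interval of 2598 piRNAs within 2-fold of WT oog. against 468 for WT spe., over 6086 of at least 10 CPM.

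The levels of the called piRNAs in all 4 groups show where each set stood. The 750 lower piRNAs had a median of 3.71 CPM in the mutant, 21.1 in WT oog., 69.6 in WT spe. and 40.2 in snpc-1.3(2xtbs). In both mutant libraries 155 of the lower piRNAs were at 0 counts. Their median log2 fold change as a set was -2.41, or -1.85 with such piRNAs placed at the bound that 3 counts over both libraries set. The 142 higher piRNAs had a median of 80.7 CPM in the mutant and 34.3, 39.0 and 38.6 in WT oog., WT spe. and snpc-1.3(2xtbs), with a median log2 fold change of 1.27 and 3 of them at 0 in WT oog. Among the 6086 piRNAs of at least 10 CPM, 383 (6.29%) were over 3 times higher in every WT library than in both mutant libraries, and a single piRNA, 21ur-14953, was over 3 times higher in both mutant libraries than in every WT library. Both lists follow from these contrasts themselves and are given as descriptions.

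Calls varied with abundance. Among 1079 piRNAs over 200 CPM, 22 were higher, 83 lower and 825 within 2-fold, with a median of -0.09. Among 3127 piRNAs of 10 to 50 CPM, 47 were higher, 344 lower and 660 within 2-fold, with a median of -0.37. Of the 3353 piRNAs under 1 CPM, 2 were called. Few differences were detectable there at this depth, and the 674 intervals within 2-fold in that range are not read as like levels.

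The upstream motif differed between the piRNAs that moved and those that did not. In the 60 nt before the 5′ end, GTTTCA on the strand of the piRNA was found for 9503 of 14714 chromosome IV piRNAs (64.6%), at a median distance of 44 nt, and for 204 of 649 piRNAs of other chromosomes (31.4%). On the opposite strand it was found for 3.64%. piRNAs were grouped by the first base of the octamer formed by the core and the 2 bases before it, since a C there is known from male piRNAs. The windows below, of 30 nt and read from the RefSeq genome sequence of WBcel235, show a C, an A and a G at that place, with the octamer in capitals, and the piRNA itself with its first base in capitals.
21ur-5666 upstream, chrIV:17143301-17143330, minus strand: aaatttCAGTTTCAacaaatttattcatag
21ur-5666, chrIV:17143259-17143279, minus strand: Tccgagatcaattgactgatt
21ur-1258 upstream, chrIV:14392570-14392599, plus strand: ttaagcCTGTTTCAcatttttctcaaattt
21ur-1258, chrIV:14392623-14392643, plus strand: Tagacttgagttagaacggtt
21ur-2502 upstream, chrIV:15396794-15396823, plus strand: aataaaATGTTTCAactagtcttcaacttg
21ur-2502, chrIV:15396845-15396865, plus strand: Tgaaattgtagtagactgctg
21ur-11737 upstream, chrIV:15650009-15650038, plus strand: aaaataGTGTTTCAgaatttaattatgctt
21ur-11737, chrIV:15650061-15650081, plus strand: Tacctttcttcaagtttcgtg

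The shares of counts by motif base in the mutant were close to those of WT oog. piRNAs with C took 34.1% and 33.1% of chromosome IV piRNA counts in the mutant, 35.5%, 35.3% and 34.2% in WT oog. and 59.2%, 58.3% and 60.2% in WT spe. Those with A took 18.9% and 18.7% in the mutant, 17.0% to 17.5% in WT oog. and 10.7% to 11.7% in WT spe. Those without the core took 39.1% and 40.1% in the mutant, 39.7% to 40.7% in WT oog. and 25.2% to 25.9% in WT spe. In each of these 3 groups the mutant libraries were nearer to every WT oog. library than to any WT spe. library.

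The remaining difference from WT oog. was larger in the C group. At 10 CPM or more, 36 of 3012 piRNAs with C were higher and 488 lower (16.2%), with a median log2 fold change of -0.35, beside 116 higher and 693 lower (11.4%) of all 6086 with a median of -0.23. Of 730 with A, 19 were higher and 36 lower (4.93%), with a median of -0.12. Of 281 with T, 11 were higher and 10 lower, of 84 with G 2 were higher and 2 lower, and of 1979 without the core 48 were higher and 157 lower (7.93%). The WT stage contrast, which shares the WT oog. libraries, had medians of 1.16 for C and -1.62 for A. Over all tested piRNAs, C made up 522 of the 750 lower ones (69.6%), 39 of the 142 higher ones (27.5%) and 49.6% of all. By place on the chromosome, 43 of the 142 higher ones (30.3%), 78 of the 750 lower ones (10.4%) and 19.7% of all tested lay before 10 Mb.

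**Figure D3:**
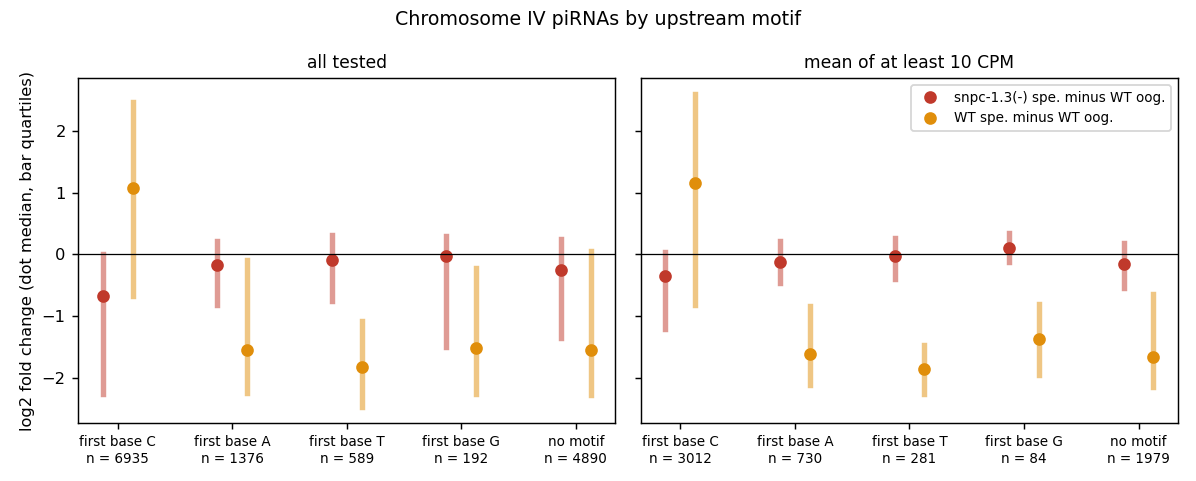
Median log2 fold change against WT oog. (dots) with quartiles (bars) of chromosome IV piRNAs, by the first base of the octamer that ends in GTTTCA, for snpc-1.3(-) spe. and WT spe. Left, all tested; right, a mean of at least 10 CPM, where the C group has a median of -0.35 in the mutant and 1.16 in WT spe.

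Male and female piRNAs, named for the germline in which they are enriched, have been followed singly by Taqman PCR, and those piRNAs were looked up in the counts. The male piRNA 21ur-1258 had 9.85 and 19.7 CPM in the mutant, 44.3, 40.2 and 50.7 in WT oog. and 249, 273 and 223 in WT spe. Both mutant libraries lay below all others, with a log2 fold change against WT oog. of -1.51 (SE 0.37, adjusted p = 0.0023), and the adjusted p was 0.13 without snpc-1.3(-) spe. replicate 1. 21ur-3142, also male, had 9.85 and 26.6 CPM in the mutant, 17.4, 21 and 31.1 in WT oog. and 139, 205 and 130 in WT spe. Mutant and WT oog. overlapped (log2 fold change -0.21, 95% interval -0.94 to 0.53, adjusted p = 0.83). 21ur-3766 had 43.4 and 59.0 CPM in the mutant, 37.8, 29.5 and 62.9 in WT oog. and 225, 219 and 116 in WT spe. It overlapped WT oog. as well (0.29, interval -0.30 to 0.88, adjusted p = 0.73), and its counts equal those of 21ur-13242, which lies at the same place.

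None of the female piRNAs was called between the mutant and WT oog., and for all 3 both mutant libraries lay above every WT spe. library. 21ur-1848 had 445 and 597 CPM in the mutant, 566, 515 and 617 in WT oog. and 113, 192 and 90.4 in WT spe. (against WT oog. -0.11, interval -0.62 to 0.39). 21ur-4817 had 445 and 495 in the mutant, 596, 603 and 676 in WT oog. and 167, 124 and 102 in WT spe. (-0.41, interval -0.92 to 0.10). Both mutant libraries of 21ur-4817 lay below WT oog., without passing the test (adjusted p = 0.46), whereas 21ur-1848 overlapped WT oog. 21ur-2502 had 471 and 428 CPM in the mutant, 290, 300 and 335 in WT oog. and 150, 142 and 94.9 in WT spe. It lay above every WT library, also without passing the test (0.54, interval 0.05 to 1.03, adjusted p = 0.22). Counts of 21ur-1848 equal those of 21ur-749 and 21ur-7214, which overlap it.

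**Figure D4:**
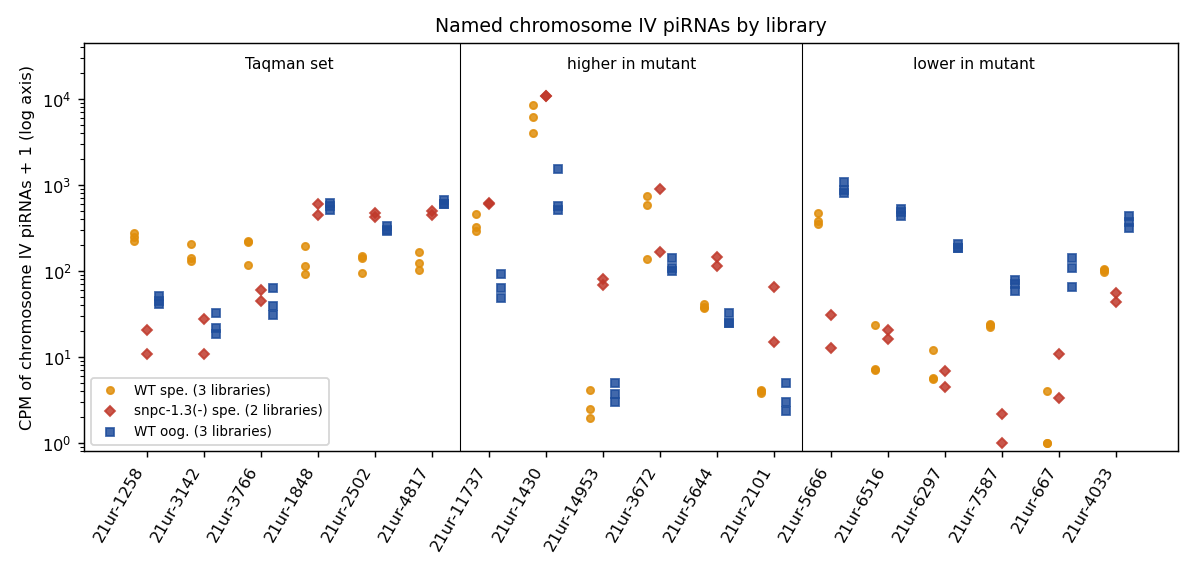
CPM of the 6 piRNAs followed by Taqman PCR and of the 12 named piRNAs past the test, in each mutant and WT library (log axis; points are libraries). 21ur-5666 lies at 11.8 and 30.1 CPM in the mutant and at 809 to 1070 in WT oog.

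Some piRNAs that are high in oogenic worms stayed low in the mutant. 21ur-6516 (chrIV:16787523-16787543, no GTTTCA upstream) had 19.7 and 15.0 CPM in the mutant, 485, 437 and 525 in WT oog. and 6.25, 22.4 and 6.03 in WT spe. Its mutant level lay among those of WT spe., 28.3-fold below WT oog. (log2 fold change -4.82, SE 0.36, adjusted p = 2.5e-36). 21ur-6297 had 5.91 and 3.47 CPM in the mutant, 204, 185 and 183 in WT oog. and 4.69 to 11.2 in WT spe. (-5.41, adjusted p = 1.8e-30), and 21ur-667 had 9.85 and 2.31 against 141, 108 and 64.9, with 0, 0 and 3.01 in WT spe. (-4.31, adjusted p = 3.1e-18). The mutant did not overlap WT oog. for either. All of these piRNAs overlap protein coding genes, 21ur-6297 Y116A8C.40 and both 21ur-667 and 21ur-6516 Y43D4A.6.

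Others were lower in the mutant than in both WT groups, with WT spe. itself below WT oog. For 21ur-5666, 21ur-7587 and 21ur-4033, WT spe. against WT oog. gave log2 fold changes of -1.19, -1.61 and -1.9. 21ur-5666 had 11.8 and 30.1 CPM in the mutant, 809, 865 and 1070 in WT oog. and 352, 469 and 384 in WT spe. Every WT library lay above both mutant libraries, and the level was 40.6-fold below WT oog. (-5.34, SE 0.37, adjusted p = 5.9e-42). 21ur-7587, which overlaps the protein coding gene athp-3, had 0 and 1.16 CPM in the mutant, 76.6, 69.7 and 58.1 in WT oog. and 21.1 to 23.4 in WT spe. (adjusted p = 9.8e-19). 21ur-4033 had 55.2 and 42.8 CPM against 374, 431 and 316 in WT oog. and 95.4 to 104 in WT spe. (-2.95, adjusted p = 3.6e-18); it overlaps 21ur-15087. All 3 carry C at the first place of the octamer, as do 21ur-6297 and 21ur-667 above. C is also the base of 69.6% of the 750 lower piRNAs and of 49.6% of all tested.

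Among the higher piRNAs were some with a stage difference in WT. 21ur-11737 had 621 and 598 CPM in the mutant, 62.2, 47.8 and 92.0 in WT oog. and 325, 455 and 294 in WT spe. The mutant lay above all WT libraries and WT spe. above WT oog. (mutant against WT oog. 3.19, SE 0.26, adjusted p = 6.9e-31); it lies in an annotated pseudogene. 21ur-1430 had 10800 CPM in both mutant libraries, 511, 572 and 1520 in WT oog. and 6150, 8490 and 4000 in WT spe. (3.64, adjusted p = 2.1e-30). Its interval overlaps the miRNA gene mir-790, so these counts can hold reads of that miRNA.

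In 21ur-14953 and 21ur-5644 the WT groups lay closer together. 21ur-14953 had 78.8 and 68.3 CPM in the mutant, 1.99, 2.68 and 4.06 in WT oog. and 0.934 to 3.13 in WT spe. (4.66, SE 0.45, adjusted p = 9e-22). It lies inside skr-13, a Skp1-related gene, whose own feature had 9.51 and 8.45 CPM of all features in the mutant, 0.302 to 0.623 in WT oog. and 0.203 to 0.385 in WT spe. (log2 fold change 4.31, adjusted p = 5.5e-06). Both features were above every WT library; reads of the piRNA are counted for the gene too. 21ur-5644 had 144 and 113 CPM in the mutant, 23.9, 23.7 and 31.1 in WT oog. and 36.4 to 40.7 in WT spe. (2.29, adjusted p = 3.8e-12). 21ur-2101 (13.8 and 63.6 CPM against 1.35 to 4.02) and 21ur-3672 (887 and 164 against 99.1 to 139) rested on 1 mutant library. They overlap the protein coding genes Y43D4A.2 and ccg-1. Without replicate 2, 21ur-2101 reached an adjusted p of 0.22, and without replicate 1, 21ur-3672 reached 0.52.

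Outside the piRNAs of chromosome IV, more features were called against WT oog. than against WT spe. In the fit of all features, 16968 of 46904 passed the filter on low counts. Of these, 9.72% were called higher and 7.57% lower between the mutant and WT oog., 17.3% in all. The WT stage contrast called 30.2% higher and 29.1% lower (59.3%), and the mutant against WT spe. 18.6% and 17.5% (36.1%). Without chromosome IV piRNAs, 1588 of 8723 features were higher (18.2%) and 567 lower (6.5%) in the mutant than in WT oog., 24.7% in all. Of these 8723, the WT stage contrast called 2128 higher (24.4%) and 1410 lower (16.2%), 40.6% in all, and the mutant against WT spe. called 268 higher (3.07%) and 155 lower (1.78%), 4.85% in all. These contrasts share libraries. The mutant libraries lay above every WT oog. library for 21.8% of the 16968 features and below for 30.9%. With miRNAs also set aside, 1457 features were higher and 559 lower. Without WT oog. replicate 1, 2 or 3, 690, 736 or 850 such features were higher and 785, 796 or 836 lower. In those fits the median log2 fold change of all features moved alike, from -0.14 to -0.49, -0.5 or -0.54. The excess of higher calls was gone or small in each of them. Whether this came from the shift of the median was not tested. Without snpc-1.3(-) spe. replicate 2, 733 were higher and 237 lower, and without replicate 1, 358 were lower. Levels in the following are CPM of all features, scaled by TMM over all of them. Scaled to miRNA totals instead, the median log2 fold change of all features moved from -0.14 to -1.72, and the share of higher calls fell from 56.2% to 2.8%, so directions below are relative to the median feature.

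Of the classes tested outside chromosome IV piRNAs, miRNAs had the largest share of calls with TMM, but not on miRNA totals or total counts, where more of the snRNAs were called. Of 185 tested, 131 were higher in the mutant than in WT oog. and 8 lower (75.1%, beside 17.3% of all features), with a median log2 fold change of 1.85. In the WT stage contrast, 110 were higher and 16 lower. Scaled to miRNA totals, 58 were higher and 40 lower with a median of 0.31. The 8 lower ones were 7 members of the mir-35 family and mir-8199. Families of the larval miRNAs and of the embryo are shown by the mature sequences of their members, which the RefSeq annotation of WBcel235 gives, with the seed, bases 2 to 8, in capitals.
let-7: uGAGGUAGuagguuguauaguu
mir-84: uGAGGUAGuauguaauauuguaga
lin-4: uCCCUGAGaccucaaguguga
mir-35: uCACCGGGuggaaacuagcagu
mir-41: uCACCGGGugaaaaaucaccua
mir-42: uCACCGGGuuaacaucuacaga
mir-52: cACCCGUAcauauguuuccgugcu

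The let-7 family, whose members time the larval stages and the passage to the adult, was higher in the mutant. Of its 7 members tested, 5 share the seed GAGGUAG, and all 7 were higher than in WT oog. (median 3.23). let-7 itself had 3200 and 5120 CPM in the mutant, 274, 352 and 504 in WT oog. and 2700, 2560 and 1870 in WT spe. Mutant and WT oog. did not overlap (log2 fold change 3.47, SE 0.38, adjusted p = 1.3e-05), and mutant against WT spe. gave 0.81 (adjusted p = 0.1). mir-84 had 3130 and 3560 CPM against 485, 515 and 711 in WT oog. (2.55, adjusted p = 2.7e-05), and mir-241 had 360 and 358 against 29.4 to 54.1 (3.24, adjusted p = 1.3e-05). On miRNA totals 5 of the 7 were higher. lin-4, which represses lin-14 in early larvae, had 31600 and 27800 CPM in the mutant, 3090, 3210 and 4150 in WT oog. and 21600 to 29800 in WT spe. (3.09, adjusted p = 4.7e-05). Its family member mir-237 was higher too (2.09, adjusted p = 0.0025), and the call was lost without snpc-1.3(-) spe. replicate 2 (adjusted p = 0.06) and without WT oog. replicate 1 (0.056) or 2 (0.053). The call of mir-48 of the let-7 family was lost in the same fits (adjusted p = 0.0047 as reported, and 0.069, 0.095 and 0.077 without each library).

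The mir-35 family, which acts in oocytes and embryos, was lower in the mutant. All 8 members have the seed CACCGGG, and mir-35 to mir-41 were lower under each setting tried, including miRNA totals. Summed over the family, levels were 7010 and 7270 CPM in the mutant, 88900, 73600 and 123000 in WT oog. and 4110 to 6650 in WT spe. mir-41 had 19.3 and 19.1 CPM in the mutant, 735, 625 and 694 in WT oog. and 8.27 to 11.7 in WT spe. (-5.16, SE 0.37, adjusted p = 1.6e-07). mir-42, encoded apart from the others, had 1730 and 1480 CPM in the mutant, 811, 595 and 816 in WT oog. and 788 to 1340 in WT spe., with an adjusted p of 0.025 (log2 fold change 1.12) that rose above 0.05 when any of the 5 libraries was left out and a value of -0.45 on miRNA totals. mir-8199 had 0.928 and 0.416 CPM in the mutant, 30.3, 20.9 and 38.7 in WT oog. and 0 to 0.12 in WT spe. (-5.57, adjusted p = 2.8e-06).

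**Figure D5:**
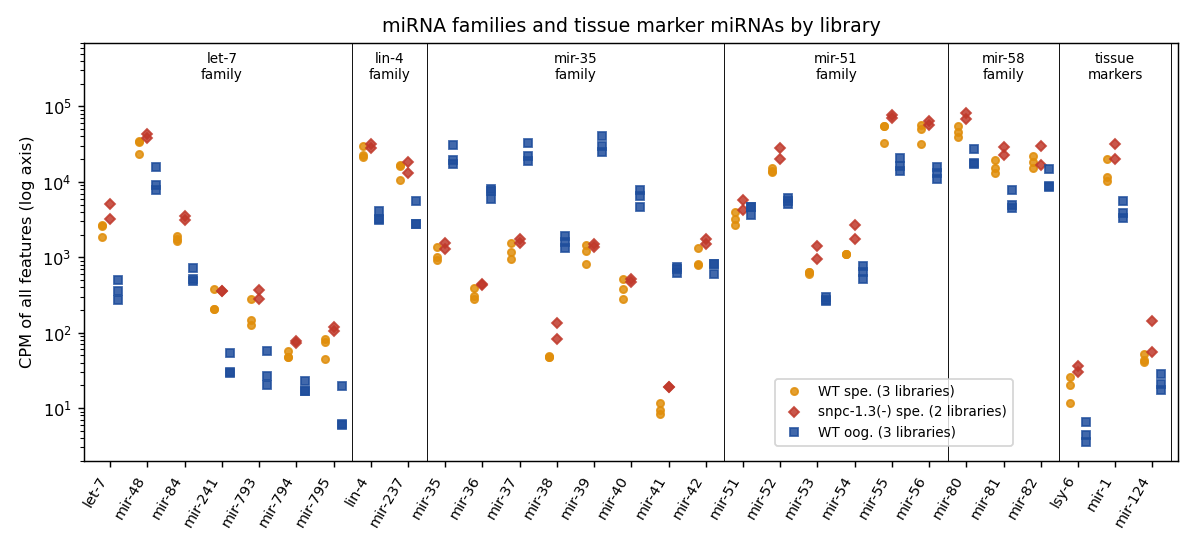
CPM of all features for members of 5 miRNA families and 3 tissue markers in each library (log axis; points are libraries). For let-7 and for mir-35 to mir-41 the mutant points lie nearer to WT spe. than to WT oog.; those of let-7, mir-36, mir-37, mir-38 and mir-41 lie above every WT spe. library.

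Most members of other abundant families, and the tissue markers, were higher as well, as were 131 of all 185 miRNAs (70.8%, median log2 fold change 1.85). Of the mir-51 family (6 members, seed ACCCGUA), 5 were higher (median 2.09), with mir-52 at 28100 and 20200 CPM in the mutant against 6170, 5080 and 5520 in WT oog. (2.11, adjusted p = 0.00052). mir-51 itself was not called (0.22, adjusted p = 0.72). On miRNA totals 2 were higher and mir-51 was lower. Of mir-80, mir-81 and mir-82 of the mir-58 family, mir-80 and mir-81 were called (1.87 and 2.16), mir-80 no longer without snpc-1.3(-) spe. replicate 2 (adjusted p = 0.078) or WT oog. replicate 1 (0.082) or 2 (0.077). mir-1 of muscle had 20100 and 31400 CPM in the mutant against 3290, 3880 and 5510 in WT oog. (2.60), lsy-6, which sets the identity of a taste neuron, 36.2 and 29.7 against 3.51 to 6.46 (2.79), and mir-124 of sensory neurons 144 and 55.2 against 17.4 to 28.4 (2.16). Mutant and WT oog. libraries did not overlap for any of these 3, and on miRNA totals 2 of the 3 were higher.

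Among the higher miRNAs, those named next had some of the smallest adjusted p values. mir-247 had 644 and 313 CPM in the mutant, 12.2, 13.8 and 15.7 in WT oog. and 89.3 to 175 in WT spe. (5.11, SE 0.38, adjusted p = 2.6e-07). mir-788 had 1070 and 523 against 19.2 to 32.3 (5.01, adjusted p = 4.8e-07) and mir-230 583 and 433 against 14.8 to 31.4 (4.52, adjusted p = 1.7e-06). Both lay above WT spe. too (log2 fold change 1.6 and 1.34, adjusted p = 0.0014 and 0.0069), as did mir-247 (1.81, adjusted p = 0.00034). With this scaling 42 of the 185 miRNAs were higher in the mutant than in WT spe. (22.7%) and 1 lower. The median log2 fold change of the class against WT spe. was 0.69.

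Small RNA counts over protein coding genes differed between the mutant and WT oog. These are short reads on a gene, not mRNA levels, and the strand they were counted on is not given in the sources used here. Of 6087 such genes, 1064 were higher in the mutant than in WT oog. and 402 lower (24.1%), with a median of 0.19. On miRNA totals 189 were higher and 2566 lower. Without WT oog. replicate 1, 2 or 3, 526, 564 or 658 were higher and 545, 539 or 581 lower, without snpc-1.3(-) spe. replicate 2, 509 were higher and 167 lower, and without replicate 1, 812 and 246. Sperm function genes gave 10 higher and 1 lower of 22 tested (median 1.76), beside 17.5% and 6.6% of protein coding genes. alg-4, an Argonaute of spermatogenesis, had 2.09 and 4.57 CPM in the mutant, 0.467 to 0.744 in WT oog. and 4.67 to 6.93 in WT spe. (2.47, adjusted p = 0.00077). Without snpc-1.3(-) spe. replicate 2, alg-4 was no longer called (adjusted p = 0.13) and 1 of the sperm function genes was higher. Without WT oog. replicate 1, 2 or 3, 6 were higher, and on miRNA totals 2 were higher and 4 lower. The msp genes of the sperm cytoskeleton gave 0 calls of 32, with summed levels of 6.73 and 47.4 CPM in the mutant, 27.7 to 38.5 in WT oog. and 56.2 to 106 in WT spe. The mutant libraries lay on both sides of WT oog. in this sum. In the WT stage contrast 11 of the 32 were higher, and without snpc-1.3(-) spe. replicate 1 or 2 the mutant gave 2 higher or 3 lower.

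Among genes of yolk and oocytes, more were lower than higher. Of 6 vitellogenins, which encode yolk proteins, 5 were lower (median -2.88) and none of them without snpc-1.3(-) spe. replicate 2; vit-2 had 0.232 and 0.416 CPM against 2.96, 1.44 and 7.63, and was also lost without snpc-1.3(-) spe. replicate 1 (adjusted p = 0.067). Of 15 oocyte and eggshell genes, 4 were lower and 1 higher, beside 6.6% and 17.5% of protein coding genes. On miRNA totals 11 of them were lower and 0 higher, and on total counts 10 and 1. egg-4, required at the egg-to-embryo transition, had 1.86 and 2.63 CPM in the mutant, 11.1, 12.9 and 19.7 in WT oog. and 2.64 to 3.12 in WT spe. (-2.66, adjusted p = 0.00021), and the receptor glp-1, which keeps germline stem cells, had 3.48 and 3.74 against 0.425 to 0.907 (2.46, adjusted p = 0.0014). Mutant and WT oog. did not overlap for either.

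Cuticle collagens and Argonautes gave calls in both directions. Of 26 collagen genes, 11 were higher and 1 lower (median 2.13), beside 17.5% and 6.6% of protein coding genes. On miRNA totals 5 were higher and 5 lower, and on total counts 6 and 3. col-13 had 5.80 and 5.68 CPM in the mutant against 0.483, 0.691 and 0.779 in WT oog. (3.13, adjusted p = 9.3e-05), and sqt-1, also a collagen, 29 and 14.3 against 0, 0.266 and 0.234, with 3.73 to 15.0 in WT spe. (6.92, adjusted p = 3.6e-06). Of 16 Argonautes, 7 were higher and 3 lower (1 and 8 on miRNA totals). Without snpc-1.3(-) spe. replicate 2, 3 were higher and 1 lower, without replicate 1, 1 was lower, and without WT oog. replicate 1 or 2, 4 were higher. ergo-1, which acts with 26G-RNAs, had 42.9 and 14.3 CPM in the mutant, 4.71, 2.13 and 1.87 in WT oog. and 6.73 to 33.1 in WT spe. (3.27, adjusted p = 0.00086).

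Small RNAs over genes of the piRNA pathway itself were measured too. Of 13 piRNA factors, 3 were higher (23.1%) and 1 lower (7.69%), beside 17.5% and 6.6% of protein coding genes. prg-1 had 5.10 and 5.13 CPM in the mutant against 11.4, 10.7 and 16.2 in WT oog. (-1.32, adjusted p = 0.0099), and the call was lost without snpc-1.3(-) spe. replicate 1 or 2 (0.084 and 0.1). The near-identical snpc-3.1, snpc-3.2 and snpc-3.3, which can share reads, were the higher ones (0.80 to 0.89, adjusted p = 0.046), and none passed when any of the 5 libraries was left out; on miRNA totals snpc-3.1 and snpc-3.2 were lower (both -0.78, adjusted p = 0.021 and 0.02) and snpc-3.3 was at -0.70 (adjusted p = 0.11). Of 69 histone genes, 11 were higher (15.9%) and 2 lower (2.9%), beside 17.5% and 6.6% of protein coding genes, with his-9 at 28.3 and 22.9 CPM against 5.92, 6.06 and 6.54 (2.05, adjusted p = 0.00019), while on miRNA totals 1 was higher and 51 were lower. With any of the 5 libraries left out, 5 or 6 histone genes were higher, and without WT oog. replicate 1, 2 or 3, 4, 8 or 5 were lower. Of 26 ribosomal protein genes, 1 was higher.

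Calls in other RNA classes changed with the scaling and with the libraries left out. Over all features, 9.72% were higher and 7.57% lower, and without chromosome IV piRNAs 18.2% and 6.5%. Of 620 tRNA features, 156 were higher and 3 lower (10 and 372 on miRNA totals). Without snpc-1.3(-) spe. replicate 1 or 2, 49 or 97 were higher, and without WT oog. replicate 1, 2 or 3, 53, 44 or 55 were higher and 7, 13 or 11 lower. T28F2.t1 had 294 and 433 CPM in the mutant against 61.4, 63.4 and 92.7 in WT oog. (2.33, adjusted p = 0.00015), and F36D4.t1 had 4.41 and 3.46 against 25.8, 25.6 and 27.5 (-2.75, adjusted p = 6.4e-05). Of 115 snRNAs, 6 were higher (5.22%) and 7 lower (6.09%), with a median of -0.69. On miRNA totals these counts were 0 and 104, and on total counts 0 and 86. Without WT oog. replicate 1, 2 or 3, 21, 36 or 14 snRNAs were lower, and without snpc-1.3(-) spe. replicate 1 or 2, 2 or 1 were lower. One of the higher ones was sls-2.3, an SL2 spliced leader RNA, at 14.6 and 17.2 CPM against 3.67 to 6.07 (1.71, adjusted p = 0.001; 0.062 without WT oog. replicate 2). Of 902 ncRNAs, 98 were higher (10.9%) and 71 lower (7.87%), of 510 pseudogenes 102 (20%) and 40 (7.84%), and of 125 snoRNAs 7 (5.6%) and 10 (8%). On miRNA totals these became 29 and 547, 12 and 193, and 0 and 91. Without WT oog. replicate 1, 2 or 3, 51, 57 or 62 ncRNAs, 42, 53 or 57 pseudogenes and 1 snoRNA each time were higher, and 101, 99 or 111, 53, 54 or 66, and 19, 18 or 12 were lower. Without snpc-1.3(-) spe. replicate 1 or 2, 54 or 53 pseudogenes were higher. No rRNA of 21 was called by edgeR with TMM (3 at an unadjusted p under 0.05) or by DESeq2. On miRNA totals edgeR called all 21 lower, on total counts 6 lower, with only the 5 libraries compared 6 higher and 3 lower, and without WT oog. replicate 1, 2 or 3, 2, 1 or 3 lower.

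Several features were far lower in the mutant than in WT oog. The long non-coding RNA linc-12 had no count in either mutant library and 29.4, 21.5 and 30.3 CPM in WT oog., at least 104-fold lower in the mutant with a floor of 3 counts over both mutant libraries, with 0 to 0.406 in WT spe. T05E12.10 had 0.464 and 0.693 CPM against 97.2, 89.7 and 155 (-7.54, adjusted p = 1.6e-07), and the protein coding Y116A8B.1 had 1.16 and 0.693 against 103, 84.3 and 143 (-6.94, adjusted p = 1.6e-07). All 3 were below every WT oog. library and near the WT spe. level. Y62F5A.14 (0.464 and 0.277 against 70.2 to 88.3 CPM) overlaps mir-36 and mir-37, so its reads may be counted for these too. In the other direction, the piRNA 21ur-13684, outside chromosome IV, had 109 and 106 CPM in the mutant, 3.02, 3.3 and 3.27 in WT oog. and 89.0 to 99.6 in WT spe. (5.06, adjusted p = 5.1e-07); it overlaps linc-59 and the pseudogene F57G8.14, which share its reads.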

How the data were processed

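Whole worms gave 11 small RNA libraries. The authors trimmed reads with Trimmomatic 0.39, kept lengths of 15 to 30 nt, aligned them with Bowtie 1.1.1 to WBcel235 without mismatches and deposited whole-number counts per feature from featureCounts (Subread 1.6.3), in which a read counts at each place and feature it matches. The strand setting is not given in the sources used here. The quasi-likelihood model of edgeR 4.0.16 (R 4.3.3; legacy glmQLFit) took all 4 groups of libraries together, once for chromosome IV piRNAs with any count and once for all features passing filterByExpr, with Benjamini-Hochberg adjustment over each fit. Adjusted p-values in the text are from edgeR's quasi-likelihood test. Calls needed an adjusted p of at most 0.05 and a log2 fold change of at least 0.26. Named features were the 6 Taqman piRNAs, in each direction the 6 called piRNAs and miRNAs (3 for other classes) with the smallest adjusted p, and members of fixed lists; the piRNAs also had to have libraries that do not overlap. The libraries were taken by their labels, but this comparison and the lists were chosen with earlier results of these data known. Alternatives were other scalings, DESeq2 1.42.0, other filters, a replicate block and leaving out each library. The fits were tested on simulated data, with known changes put into features of at least 10 CPM. The piRNA fit recovered 32 of 100 changes of 2-fold and 86 of 100 changes of 4-fold. The fit of all features recovered 13 and 91 of 100. Other deposited files of the series were not used.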

Additional observations from a re-analysis of the deposited data

How the results depend on the processing

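The direction of the counts depends on what is held constant. With miRNA totals in place of TMM, 7 chromosome IV piRNAs were higher and 7696 lower and 703 lay within 2-fold (16 of those of at least 10 CPM), 58 miRNAs were higher and 40 lower, and 247 other features (neither miRNAs nor chromosome IV piRNAs) were higher and 3981 lower. With total counts, the piRNA values were 15, 6116 and 783 (95), 25 miRNAs were lower, and 450 other features were higher and 2664 lower, beside 1457 and 559 as reported. With only the 5 libraries compared, 285 piRNAs were higher and 849 other features lower. DESeq2 called 275 piRNAs lower. Leaving out each library in turn gave 26 to 114 piRNAs higher, 177 to 673 lower and 1861 to 3241 within 2-fold, or 1115 to 2309 beside 2598 at 10 CPM or more (a limit chosen after seeing the data), 690 to 1009 other features higher and 237 to 836 lower. Of the counts of calls, 61 of 94 alternatives were within 1.5 times the value reported.

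Whether replicate numbers pair the libraries could not be decided. The deviations of 2 mutant libraries from their mean mirror each other, so each WT oog. library correlates with them at values of opposite sign. Over 6086 piRNAs the deviations of same-numbered mutant and WT oog. libraries correlated at 0.15 and -0.13. With the replicate block, 72 piRNAs were higher and 657 lower.

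The position of the mutant over piRNAs was 1.12 with log2(CPM + 5), 1.17 at 1 CPM or more, 1.19 at 50 CPM or more and 1.19 to 1.22 with a library left out. Over miRNAs it was -0.01, 0.03 and -0.02 under the same changes.

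Named log2 fold changes that changed sign on miRNA totals were 21ur-3766 (-1.25), 21ur-2502 (-1.04), mir-42 (-0.45), mir-51 (-1.36), mir-82 (-0.40), snpc-3.3 (-0.70), snpc-3.1 and snpc-3.2 (both -0.78), msp-31 (-1.07), anr-12 (-0.10), T11F9.16 (-0.26), sls-2.9 (-0.53), R12E2.17 (-0.02) and F25H5.9 (-0.59). On total counts they were 21ur-3766 (-0.80), 21ur-2502 (-0.58), mir-51 (-0.90), snpc-3.3 (-0.24), snpc-3.1 and snpc-3.2 (both -0.32), msp-31 (-0.61), sls-2.9 (-0.07) and F25H5.9 (-0.13). Over the 5 libraries left out in turn, values on both sides of 0 were found for 21ur-3142 (-1.23 to 0.22), 21ur-3766 (-0.01 to 0.63), 21ur-1848 (-0.37 to 0.08), mir-51 (-0.29 to 0.36), spe-10 (-2.29 to 5.74), alg-3 (-0.30 to 3.22), msp-31 (-7.20 to 1.37), msp-53 (-1.69 to 0.27) and msp-59 (-7.60 to 0.02), for all but 21ur-3142 and mir-51 through the loss of 1 mutant library. The cause of these changes was not tested.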
